A study of Mus musculus with 17 samples.

Results

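The genes described here are 9 sensors and regulators of nucleic acids in the cell interior: Ddx58, Ifih1, Dhx58, Zbp1, Eif2ak2, Adar, Trex1, Samhd1 and Mavs. They were chosen by symbol as a functional group, with earlier results of these data known. All 9 were measured among the 17097 genes of the array. The arrays profiled cells sorted by flow cytometry from male NOD mice, a strain that develops spontaneous lymphocytic inflammation of the lacrimal gland and serves as a model of Sjögren's syndrome. From the gland there were 4 arrays of B cells (CD45+, B220+, CD3-), 4 of CD4 T cells (CD45+, CD3+, CD4+) and 3 of epithelial cells (CD45-, CD326+), and from the spleen 3 arrays of B cells and 3 of CD4 T cells. Both lymphocyte gates were negative for NKp46, CD11b and CD11c. The gland donors were 16 weeks old. The spleen donors are given as 16 weeks old in the sample labels and as 4 weeks old in the design text, so age may differ together with tissue. No treatment or engineered allele is named for any group. Enzymes were used to dissociate the glands, and the labels mention none for the spleen. Whether replicates are separate animals is not given, so each p-value reflects variation among these arrays, part of which may be technical.

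Cells detect misplaced or foreign nucleic acids with dedicated receptors. The helicases RIG-I (encoded by Ddx58) and MDA5 (Ifih1) bind viral or self RNA duplexes in the cytosol and signal through MAVS on mitochondria to induce type I interferon, while LGP2 (Dhx58), which lacks the signalling domains of its relatives, modulates them. ZBP1 binds nucleic acids in the left-handed Z conformation and can trigger necroptosis through RIPK3. PKR (Eif2ak2) halts translation on binding RNA duplexes. ADAR1 (Adar) edits adenosines in RNA duplexes so that self RNA is not taken for foreign, TREX1 degrades stray DNA, and SAMHD1 lowers the pool of deoxynucleotides. In humans, inherited defects of the last 3, or overactive forms of MDA5, cause Aicardi-Goutières syndrome, an interferon-driven disease. Many of these genes are themselves induced by interferon through response elements near their start sites.

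Promoter sequences from RefSeq (build GRCm38.p6), running from 250 bases before to 50 bases after the start of the gene, were matched for 7 of the 9 genes (Ddx58, Ifih1, Eif2ak2, Adar, Trex1, Samhd1 and Mavs; 10 promoters in all). They were searched for the core of the interferon stimulated response element, GAAA followed by any 2 bases and a further GAAA, on both strands. Ddx58, Ifih1 and Eif2ak2 held 1 match each, beside 3.99% of all 27025 genes with a promoter in the table. These 3 sequences are shown with the match in capitals, written 5′ to 3′ on the strand of the gene, because they place the motif relative to the start. The first base of the match lay 3, 33 and 19 bases into the gene (counting its first base as 1) for Ddx58, Ifih1 and Eif2ak2.
Ddx58, chr4:40239776-40240075, minus strand: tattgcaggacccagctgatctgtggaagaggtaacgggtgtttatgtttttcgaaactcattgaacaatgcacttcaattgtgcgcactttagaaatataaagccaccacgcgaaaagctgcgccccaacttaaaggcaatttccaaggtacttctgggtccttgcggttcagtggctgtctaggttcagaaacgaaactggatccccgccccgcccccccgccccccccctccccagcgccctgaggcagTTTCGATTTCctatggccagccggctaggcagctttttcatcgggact
Ifih1, chr2:62646206-62646505, minus strand: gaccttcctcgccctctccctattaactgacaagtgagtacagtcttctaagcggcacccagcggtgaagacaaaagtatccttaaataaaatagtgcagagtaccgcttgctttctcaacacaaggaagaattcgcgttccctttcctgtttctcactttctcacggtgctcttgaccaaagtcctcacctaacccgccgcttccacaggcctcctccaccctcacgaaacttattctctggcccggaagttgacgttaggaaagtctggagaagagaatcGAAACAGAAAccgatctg
Eif2ak2, chr17:78882523-78882822, minus strand: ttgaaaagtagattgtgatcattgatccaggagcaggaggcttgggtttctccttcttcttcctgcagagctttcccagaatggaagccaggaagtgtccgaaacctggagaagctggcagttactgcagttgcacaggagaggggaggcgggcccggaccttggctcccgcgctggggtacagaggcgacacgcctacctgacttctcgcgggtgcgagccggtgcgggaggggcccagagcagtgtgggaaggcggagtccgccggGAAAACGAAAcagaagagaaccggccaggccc
The Ddx58 match was on the opposite strand to the gene. The palindromic gamma activated site TTCNNNGAA, which overlaps none of these matches, was found in the promoters of Eif2ak2 and Samhd1 and in 1 of the 3 promoters of Adar, beside 9.55% of all genes. A match is a description of these windows and not a shown binding site. Only exact matches were counted, so a window without a match may still hold a variant of the element.

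Levels are log2 values as deposited, and a value is compared only between arrays, never between genes. Marker genes followed the sorts: 7 B cell genes averaged 9.996 to 10.22 over the B cell arrays and 3.70 to 4.93 elsewhere, and 8 T cell genes averaged 10.03 to 10.12 over the CD4 T cell arrays. Gland lymphocyte arrays also carried epithelial material, with 8 epithelial genes at means of 5.63 to 6.21 against 3.92 to 4.05 in spleen arrays and 9.36 to 9.80 in epithelium, and 4 of the 8 were called higher in the gland in B and 5 in CD4 T cells. Immediate early genes, which respond to handling, averaged 9.10 to 9.66 in gland lymphocytes, 5.92 to 6.47 in spleen and 9.88 to 10.01 in epithelium; of these 13 genes 13 were called higher in gland B cells and 10 in gland CD4 T cells. Of 4 measured plasma cell genes 4 were called higher in gland CD4 T cells (list mean 9.06 to 9.34 against 6.68 to 7.37) and 0 in gland B cells, and of 9 myeloid genes 1 in each subset. Of the plasma cell genes, Prdm1 was the 1 called between the gland subsets, 11.2-fold lower in B than in CD4 T cells. Whether the CD4 T cells or admixed plasma cells gave these transcripts was not tested. The epithelial sort went against its gate in replicate 1, where Ptprc (CD45) stood at 9.62 against 2.42 and 2.36 in replicates 2 and 3. Endothelial genes were also high in all 3 epithelial arrays (6 genes, 8.28 to 8.73, against 3.50 to 4.64 in lymphocytes), as were fibroblast genes (6 genes, 5.86 to 6.43, against 2.84 to 3.17). Natural killer cell genes stood at 6.06 in epithelial replicate 1 and 3.15 and 3.04 in the others, and T cell genes at 5.57, 3.39 and 3.32. In such bulk samples, fewer cells of a type and less RNA per cell cannot be told apart.

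In gland against spleen B cells, Ifih1, Dhx58 and Zbp1 rose, and in CD4 T cells Ifih1, Dhx58, Eif2ak2 and Trex1 rose; none of the 9 genes fell by the same rule. The rule was a Benjamini-Hochberg adjusted p under 0.05 from limma over all 17097 genes and a change of at least 2-fold. The 3 of 9 in B cells stand beside 2.58% of all genes called higher and 1.6% called lower, and the 4 of 9 in CD4 T cells beside 5.35% and 1.62%. The median log2 fold change of the 9 genes was 0.73 for B and 0.66 for CD4 T cells, beside 0.00 and -0.03 over all genes. With the adjusted p alone, 7 genes were higher and 1, Mavs, was lower in gland B cells (7.79% and 9.87% of all genes), and 5 were higher and 0 lower among gland CD4 T cells (12.7% and 10.7%). In limma's unadjusted test 8 and 6 of the 9 genes had a p under 0.05, but the share of all genes at that p was not counted. The 2 comparisons share no arrays.

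**Figure D1:**
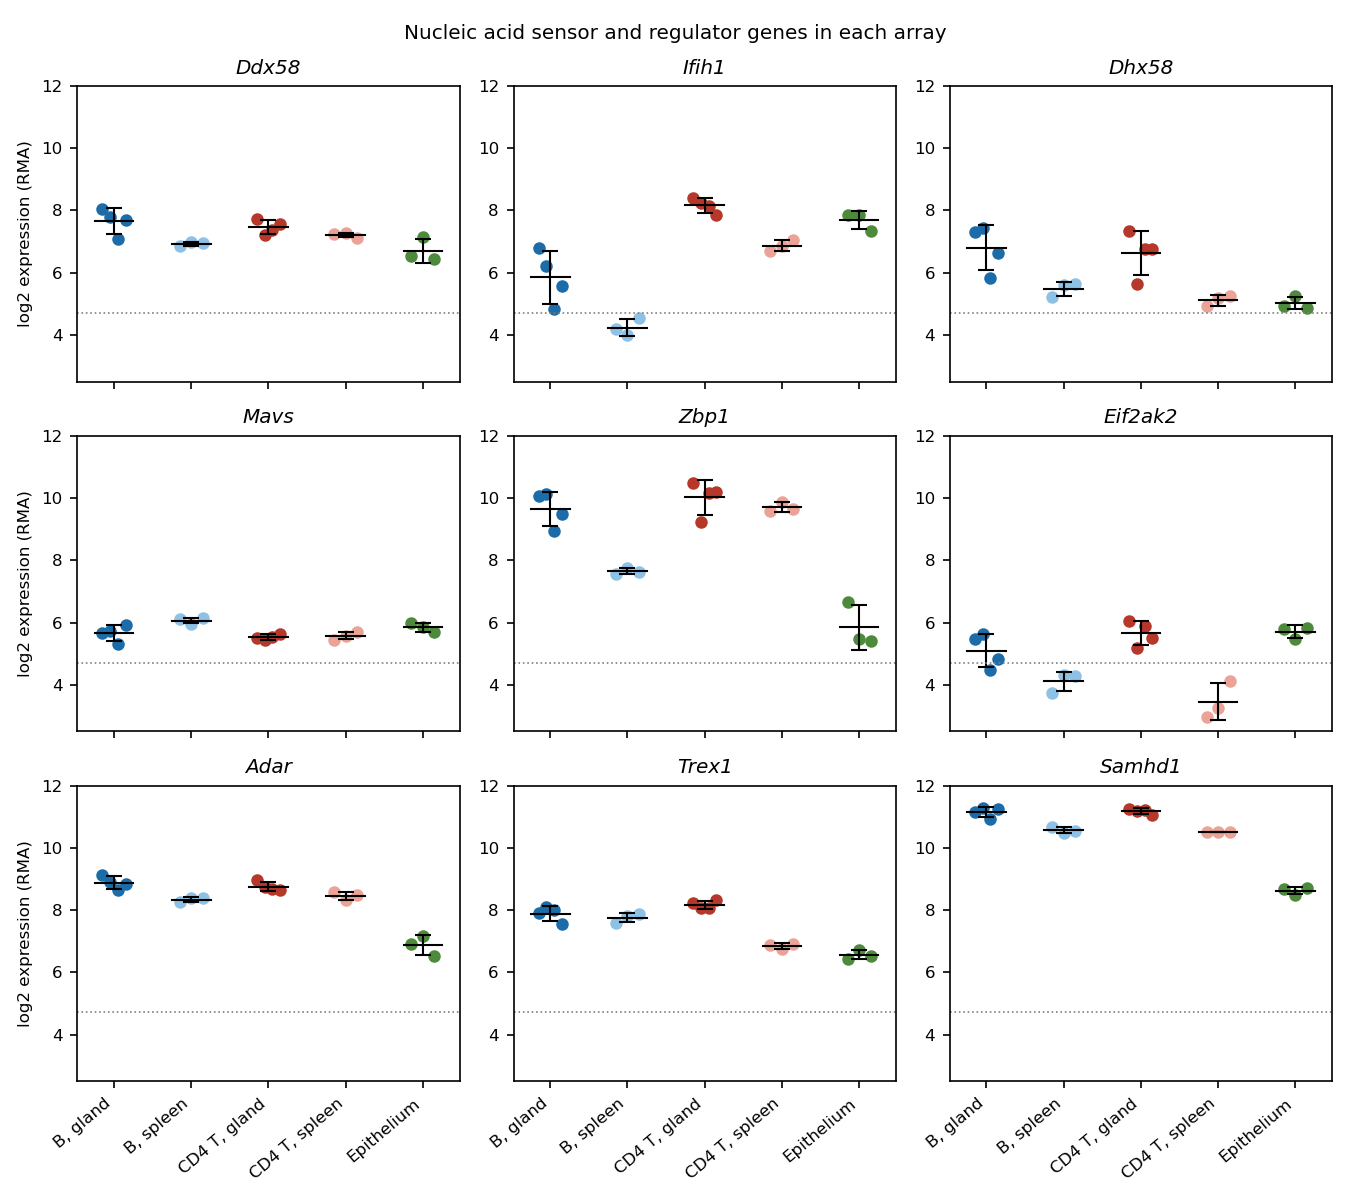
Log2 expression (vertical axis) of the 9 genes in each array, by sorted group; points are arrays, the long bar is the group mean, the error bar the SD, and the dotted line the median of all values on the arrays (4.71). Ifih1 is lowest in spleen B cells, Zbp1 and Samhd1 are lowest in epithelium, and gland arrays lie above spleen arrays of the same subset for Dhx58 and Eif2ak2.

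Among the RNA helicases, Ifih1 differed most between cell types. Its log2 level was 6.79, 6.21, 4.82 and 5.58 in gland B cells and 4.18, 4.00 and 4.53 in spleen B cells. In CD4 T cells it was 8.41, 8.25, 8.14 and 7.86 in the gland and 6.69, 6.85 and 7.04 in the spleen. All gland arrays lay above all spleen arrays of their subset, and gland B replicate 3 lay just above the spleen range. The rise was 3.06-fold in B cells (log2 1.61, SE 0.33, adjusted p = 0.00273) and 2.47-fold in CD4 T cells (1.30, SE 0.33, adjusted p = 0.00774), and the difference between these changes was 0.31 (SE 0.46, adjusted p = 0.78). All 3 spleen B cell arrays were below the median of all values (4.71), and the files carry no detection calls, so the B cell fold compares deposited values whose distance from background is unknown. MDA5 transcript was thus ordered from gland CD4 T cells through epithelium (7.86, 7.86 and 7.35), spleen CD4 T cells and gland B cells to spleen B cells. The first pair in this order did not pass the test (0.47, SE 0.33, adjusted p = 0.231), nor did the next, epithelium and spleen CD4 T cells (0.83, SE 0.35, adjusted p = 0.051), whereas spleen CD4 T cells lay above gland B cells (1.01, SE 0.33, adjusted p = 0.0256). B cells were 4.96-fold below CD4 T cells in the gland (adjusted p = 1.61e-05) and 6.16-fold below them in the spleen (adjusted p = 2.41e-05). Ifih1 was the 1 member called between B and CD4 T cells in the gland, where 3.73% of all genes were called higher and 5.97% lower, and Ifih1 and Zbp1 were the 2 called in the spleen, beside 4.63% and 4.52%. With the adjusted p alone, Trex1 and Mavs were also higher in spleen B than in spleen CD4 T cells, so 2 were higher and 2 lower, beside 11.1% and 11.3%.

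Dhx58, which encodes the regulator LGP2, was higher in the gland in both lymphocyte subsets and low in epithelium. In gland B cells it stood at 7.32, 7.44, 5.84 and 6.63, and in spleen B cells at 5.20, 5.60 and 5.63. In gland CD4 T cells it stood at 7.33, 5.65, 6.75 and 6.76, and in spleen CD4 T cells at 4.92, 5.18 and 5.26. The groups did not overlap in either subset, with gland B replicate 3 and gland CD4 T replicate 2 nearest to the spleen. The rise was 2.51-fold in B cells (log2 1.33, SE 0.36, adjusted p = 0.0186) and 2.83-fold in CD4 T cells (SE 0.36 on the log2 scale, adjusted p = 0.00616), and the difference was -0.17 (SE 0.51, adjusted p = 0.903). In B cells the call was lost on leaving out gland replicate 1 (adjusted p = 0.0523), gland replicate 2 (0.0563) or spleen replicate 1 (0.0798). With the mean of its 3 probe sets the change was 0.61 in B and 0.80 in CD4 T cells, under the fold minimum. Spleen B cells, spleen CD4 T cells and epithelium (4.94, 5.24 and 4.88) formed the low end of the order, and no pair of these 3 groups differed by the test (adjusted p = 0.322 to 0.838).

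Ddx58, the RIG-I gene, moved less. It ranged from 7.07 to 8.04 in gland and 6.85 to 6.98 in spleen B cells, and from 7.21 to 7.73 in gland and 7.13 to 7.27 in spleen CD4 T cells. The B cell groups did not overlap, whereas the CD4 T cell groups did. Its difference was 1.66-fold in B cells (log2 0.73, SE 0.20, adjusted p = 0.0194), under the fold minimum, and 1.20-fold in CD4 T cells (0.26, SE 0.20, adjusted p = 0.42). Epithelium (6.44 to 7.14) lay 0.95 below gland B cells (SE 0.20, adjusted p = 0.000648) on the log2 scale.

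Mavs, the adaptor on which RIG-I and MDA5 converge, was the flattest of the genes by range, from 5.31 to 6.13 over all 17 arrays. Gland B cells ranged from 5.31 to 5.93 and spleen B cells from 5.96 to 6.13, without overlap. The difference was -0.40 (SE 0.12, adjusted p = 0.034), short of the fold minimum. In CD4 T cells it was -0.04 (SE 0.12, adjusted p = 0.871).

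**Figure D2:**
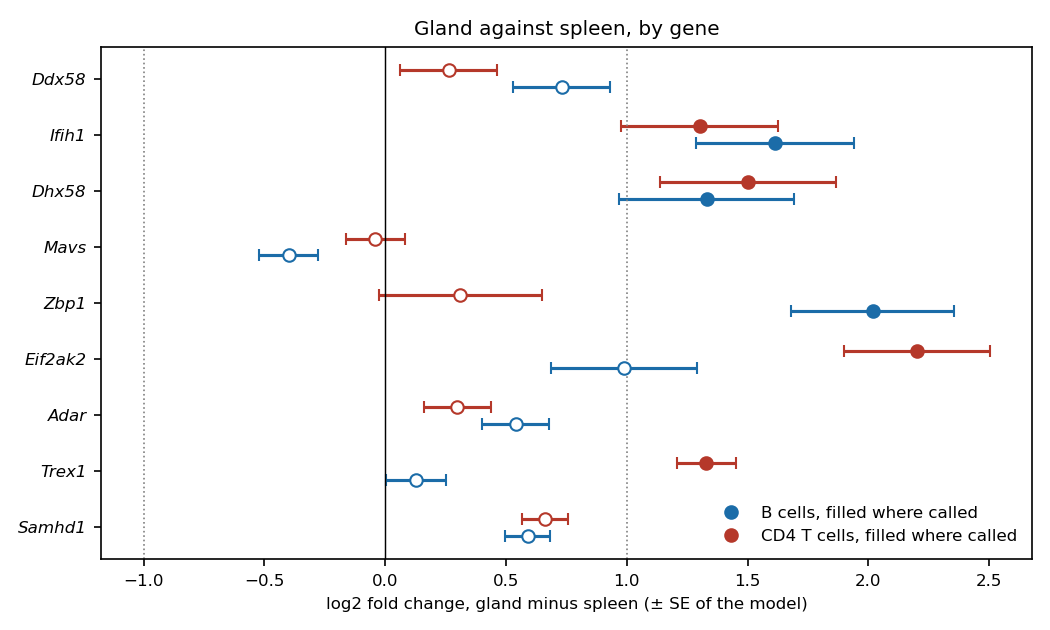
Log2 fold change of each gene, gland minus spleen (horizontal axis), with the model's standard error; blue is B cells, red is CD4 T cells, filled points passed the adjusted p and the 2-fold minimum, and dotted lines mark that minimum. Zbp1 is filled in B cells only (2.02 against 0.31 in CD4 T cells) and Trex1 in CD4 T cells only (1.33 against 0.13 in B cells).

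Zbp1, the Z-form nucleic acid sensor, differed 4.05-fold between gland and spleen B cells. It stood at 10.08, 10.12, 8.96 and 9.48 in gland B cells and at 7.55, 7.74 and 7.63 in spleen B cells, so the lowest gland array was over 1 log2 unit above the highest spleen array. In CD4 T cells it was already high in the spleen (9.59, 9.88 and 9.66), and the gland arrays (10.48, 9.23, 10.16 and 10.21) overlapped that range because replicate 2 lay below it. The change was 2.02 in B cells (SE 0.34, adjusted p = 0.000634) and 0.31 in CD4 T cells (SE 0.34, adjusted p = 0.597). The difference between these changes was 1.71 (SE 0.48, adjusted p = 0.0314), where 1.22% of all genes were called higher. By the second Zbp1 probe set the difference was 0.94 (SE 0.34, adjusted p = 0.1) and was not called. With the first, the call was lost on leaving out gland B replicate 1 or 2 or any of the 6 spleen arrays (adjusted p = 0.0528 to 0.078), with values of 1.55 to 1.77. Spleen B cells lay 4.19-fold below spleen CD4 T cells (adjusted p = 0.000369), whereas gland B cells and gland CD4 T cells differed by -0.36 (SE 0.31, adjusted p = 0.436). From gland CD4 T cells through spleen CD4 T cells to gland B cells no neighbours differed by the test, and spleen B cells and then epithelium (6.67, 5.48 and 5.40) followed, each lower than the group before it.

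Eif2ak2, which encodes the translation-blocking kinase PKR, rose 4.59-fold in gland CD4 T cells. Its levels there were 6.05, 5.19, 5.89 and 5.49, against 2.98, 3.27 and 4.12 in the spleen. In gland B cells they were 5.46, 5.63, 4.48 and 4.82, against 3.74, 4.32 and 4.27 in the spleen. Gland arrays lay above spleen arrays in both subsets, more widely in CD4 T cells. The change was 2.20 in CD4 T cells (SE 0.30, adjusted p = 5.26e-05) and 0.99 in B cells (SE 0.30, adjusted p = 0.034), just under the fold minimum. The difference between the changes was -1.21 (SE 0.43, adjusted p = 0.0936) and did not pass, although it did without spleen CD4 T replicate 3 (-1.54, adjusted p = 0.026). All 6 spleen arrays lay below the median of all values, so the same limit holds for these folds. Leaving out gland B replicate 3 or 4 brought the B cell change past the minimum (1.19 and 1.08). Epithelium (5.80, 5.47 and 5.83) did not differ from gland CD4 T cells by the test (0.05, SE 0.30 in size, adjusted p = 0.906).

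Of the genes that remove or mask self nucleic acids, Trex1, the DNA exonuclease, gave the sharpest difference between subsets. It stood at 8.24, 8.07, 8.07 and 8.33 in gland CD4 T cells and at 6.88, 6.74 and 6.92 in spleen CD4 T cells. In B cells the gland arrays (7.90, 8.12, 7.99 and 7.56) overlapped the spleen arrays (7.60, 7.83 and 7.86). The change was 1.33 in CD4 T cells (SE 0.12, 2.51-fold, adjusted p = 8.13e-07) and 0.13 in B cells (SE 0.12, adjusted p = 0.554), and the difference between them was -1.20 (SE 0.17, adjusted p = 0.000227), where 3.87% of all genes were called lower. The Trex1 difference kept its call under every alternative run, from -1.28 to -1.07. Within the spleen, B cells were 0.92 higher than CD4 T cells on the log2 scale (SE 0.13, adjusted p = 5.76e-05). Within the gland the difference, B minus CD4 T cells, was -0.29 (SE 0.11, adjusted p = 0.0712) and did not pass. Spleen CD4 T cells and epithelium (6.44, 6.73 and 6.54) made up the low end and did not differ from each other by the test (0.28, SE 0.13, adjusted p = 0.0832).

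Samhd1, the deoxynucleotide hydrolase, was higher in the gland by similar amounts in both subsets. Gland B cells stood at 11.17, 11.30, 10.92 and 11.26 and spleen B cells at 10.69, 10.49 and 10.54. Gland CD4 T cells stood at 11.26, 11.19, 11.23 and 11.06, and the 3 spleen CD4 T cell arrays at 10.52 each. Neither pair of groups overlapped. The difference was 0.59 in B cells (SE 0.09, adjusted p = 0.000429) and 0.66 in CD4 T cells (SE 0.09, adjusted p = 7.31e-05), which is 1.51-fold and 1.58-fold and so short of the minimum. A second probe set of Samhd1 did not show it: there the differences were 0.08 (SE 0.14, adjusted p = 0.753) and 0.02 (SE 0.14, adjusted p = 0.943).

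Adar, the RNA editing enzyme that shields self RNA from MDA5, ranged from 8.64 to 9.14 in gland and 8.26 to 8.39 in spleen B cells. In CD4 T cells it ranged from 8.67 to 8.96 in the gland and 8.32 to 8.59 in the spleen. Both pairs of groups were separate by small margins. The difference was 0.54 in B cells (SE 0.14, adjusted p = 0.0127) and 0.30 in CD4 T cells (SE 0.14, adjusted p = 0.147), and neither reached the fold minimum.

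Counted over arrays alone, 7 of the 9 genes were higher in every gland than in every spleen B cell array and 1 lower, beside 14.5% and 16.1% of all genes. In CD4 T cells 6 were higher and 0 lower, beside 16.8% and 17.7%. Both counts used the 1 probe set kept per gene. In B cells the other probe sets of Ddx58 and Samhd1 overlapped, that of Zbp1 did not, and those of Dhx58 and Adar were mixed.

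The genes with more than 1 probe set did not all give the same answer. For Zbp1 the 2 probe sets ran together in B cells (2.02 and 1.75, adjusted p = 0.000633 and 0.000114), and in CD4 T cells the second gave 0.81 (SE 0.24, adjusted p = 0.0224) where the first gave 0.31. For Adar the 3 probe sets all lay above 0 in B cells (0.33 to 0.54) but not in CD4 T cells, where 2 were higher in the gland (0.30 and 0.37) and 1 was lower (-0.38, SE 0.09, adjusted p = 0.00726). This last one read 7.64, 7.41, 7.53 and 7.54 in gland and 7.85, 7.92 and 7.94 in spleen CD4 T cells, with no overlap. For Ddx58 the dimmer probe sets gave 0.12 and -0.26 in B cells (adjusted p = 0.809 and 0.55), so the B cell difference of 0.73 rested on the brightest one. For Dhx58 the other probe sets were dim, at or below 4.40 in every array, and gave 0.55 and -0.05 in B cells and 0.94 and -0.04 in CD4 T cells. Probe sets of a gene can read different transcript ends or forms, and which transcripts these read was not examined. Ifih1, Eif2ak2, Trex1 and Mavs had 1 probe set each.

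**Figure D3:**
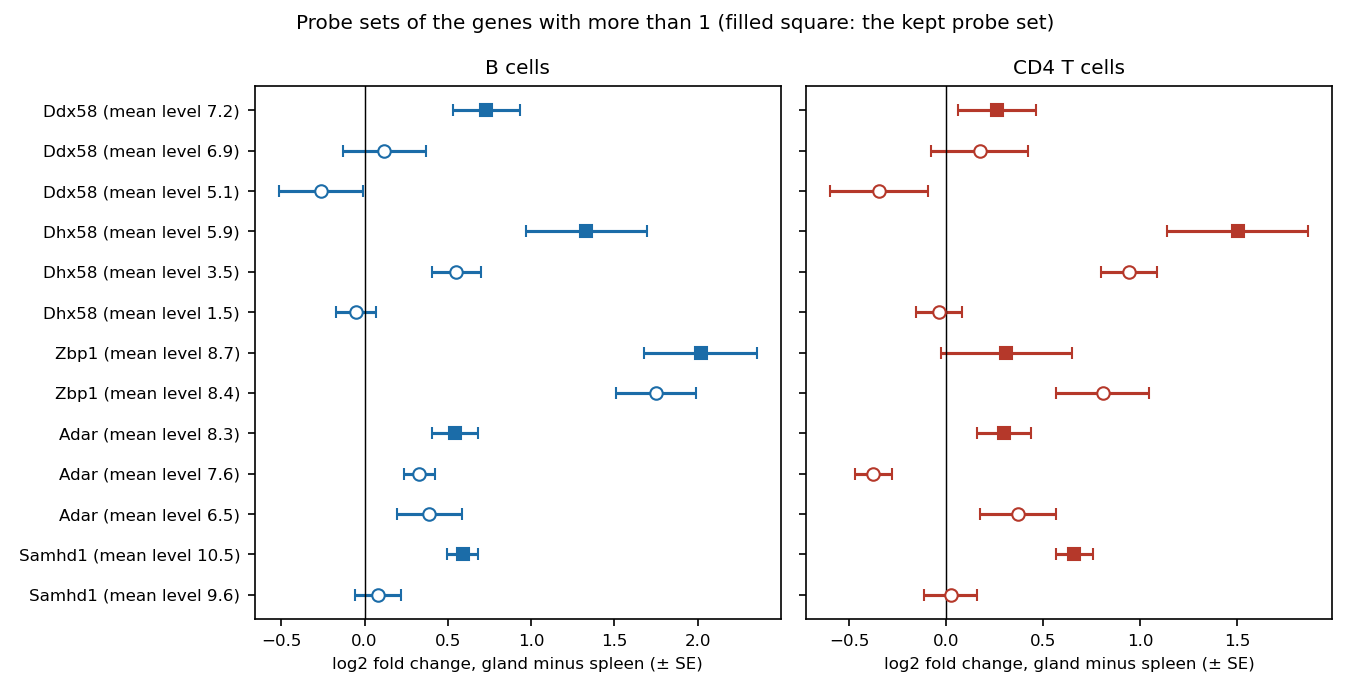
Log2 fold change, gland minus spleen, with its standard error for every probe set of the 5 genes that had more than 1, in B cells (left) and CD4 T cells (right); filled squares are the probe sets kept for the main tests, open circles the others, and the mean level over the arrays is given beside each gene. The Zbp1 probe sets lie together in B cells at 2.02 and 1.75, those of Samhd1 apart in both subsets, and those of Adar on both sides of 0 in CD4 T cells.

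Compared with gland lymphocytes, the epithelial sort had low levels of Zbp1, Samhd1, Adar, Dhx58 and Trex1. These 5 of 9 genes were called lower than the mean of both gland lymphocyte subsets and 0 higher, beside 10.3% and 15.2% of all genes. Zbp1 was 15.9-fold lower (log2 -3.99, SE 0.30, adjusted p = 7.02e-09), Samhd1 5.84-fold (-2.55, SE 0.08, adjusted p = 3.04e-13) and Adar 3.85-fold (-1.94, SE 0.12, adjusted p = 8.74e-10). Samhd1 stood at 8.67, 8.49 and 8.72 in epithelium and Adar at 6.93, 7.17 and 6.54, below every lymphocyte array. Dhx58 was 3.24-fold and Trex1 2.76-fold lower. The remaining 4 genes were not called: Ddx58 was at -0.86 (adjusted p = 0.00053), Ifih1 at 0.68 (adjusted p = 0.0496), Eif2ak2 at 0.33 (adjusted p = 0.299) and Mavs at 0.25 (adjusted p = 0.0523). Centring the arrays on their medians lowered the median of all genes in this comparison by 0.31, turned Mavs to -0.063 and brought Ddx58 to -1.17, a call, and under that centring 43.2% rather than 59.6% of called genes were higher in epithelium. Without replicate 1, the array with CD45 transcript, the same number of genes was called (5 lower and 0 higher), and Zbp1 was 21.2-fold lower (adjusted p = 2.66e-09). In that replicate Zbp1 read 6.67 against 5.48 and 5.40 in the others.

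Because gland lymphocyte arrays carried epithelial transcripts, the epithelial levels were set beside theirs. For Zbp1, Dhx58, Trex1, Samhd1 and Adar the epithelial mean lay below the gland lymphocyte means and below both spleen means. For Ifih1 and Eif2ak2 it lay above gland B cells (by 1.84 and 0.60 on the log2 scale, adjusted p = 0.000133 and 0.0929) and above spleen B cells (by 3.45 and 1.59). Against CD4 T cells, epithelial Eif2ak2 (mean 5.70) was 2.25 above the spleen (adjusted p = 1.63e-05) and level with the gland (5.65), and epithelial Ifih1 (7.69) lay between the spleen (6.86) and gland (8.16) means. The part of epithelial RNA in the Ifih1 and Eif2ak2 changes was not tested.

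The gland arrays differed among themselves in a shared way. Of the 9 genes, 8 were lowest in replicate 3 among the gland B cell arrays, and 6 were lowest in replicate 2 among the gland CD4 T cell arrays, where 7 were highest in replicate 1. The mean over the 9 genes was 7.95, 7.92, 7.12 and 7.54 in gland B cells and 6.69, 6.81 and 6.88 in spleen B cells. In gland CD4 T cells it was 8.22, 7.66, 7.98 and 7.96, and in spleen CD4 T cells 6.98, 7.07 and 7.20. Every gland array thus stayed above the spleen arrays of its subset. Across the 17 arrays, after each group's mean was taken off, Dhx58 went with Ddx58 (r = 0.80), Eif2ak2 (0.77) and Zbp1 (0.75), and Ifih1 with Adar (0.69) and Ddx58 (0.69), whereas Trex1 went with none of them above 0.36. These correlations describe 17 arrays that share their processing.

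Other measures moved over the same gland arrays. Transcript of Rnf125, a ubiquitin ligase that marks the RIG-I and MDA5 proteins for degradation, stood at 5.74, 5.69, 8.10 and 6.15 in gland B cells. It was highest in the replicate where the receptors were lowest. In gland CD4 T cells it stood at 9.53, 10.26, 9.86 and 9.41, again highest in the replicate lowest for most of the 9 genes. Its lowest value there was in replicate 4, whereas most of the 9 genes were highest in replicate 1. The mean of the 18 measured negative regulators, Rnf125 among them, was 7.63, 7.58, 7.64 and 7.59 in gland B cells. In gland CD4 T cells that mean was 8.10, 8.04, 8.08 and 8.08. Plasmacytoid dendritic cell genes (6 measured of 8) averaged 8.03, 7.98, 7.16 and 7.59 in gland B cells and 7.23 to 7.29 in spleen B cells, and 1 of them, Ccr9, was called higher (8.88, 8.54, 5.87 and 7.34 against 5.18 to 5.70). In the CD4 T cell arrays this list was at 5.92 to 6.02 in the gland and 6.13 to 6.37 in the spleen, and 1 of its genes was called lower. Between B and CD4 T cells, 3 of its genes were called higher and 1 lower in the gland, and 2 and 2 in the spleen. Tcf4 and Ly6d were higher in B cells of both tissues, 15.4-fold and 20.7-fold in the gland and 18.1-fold and 38.3-fold in the spleen. Which cells gave the transcripts of this list in the B cell arrays was not tested. Secretory genes of the lacrimal gland (7 measured of 10) averaged 8.26, 7.92, 7.44 and 7.76 in gland B cells and 8.17, 7.57, 8.11 and 8.27 in gland CD4 T cells, against 3.67 to 5.30 in the spleen arrays, and 6 of them were called higher in each subset. The 8 epithelial genes averaged 5.93, 5.63, 5.82 and 5.93 in gland B cells and 5.82, 6.21, 6.13 and 5.98 in gland CD4 T cells. Immediate early genes were highest in gland B replicate 3 (9.66, against 9.21 to 9.43) and gland CD4 T replicate 2 (9.40, against 9.10 to 9.27). The part of Rnf125, of other cells, of epithelial RNA and of handling in the spread of the 9 genes was not tested.

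**Figure D4:**
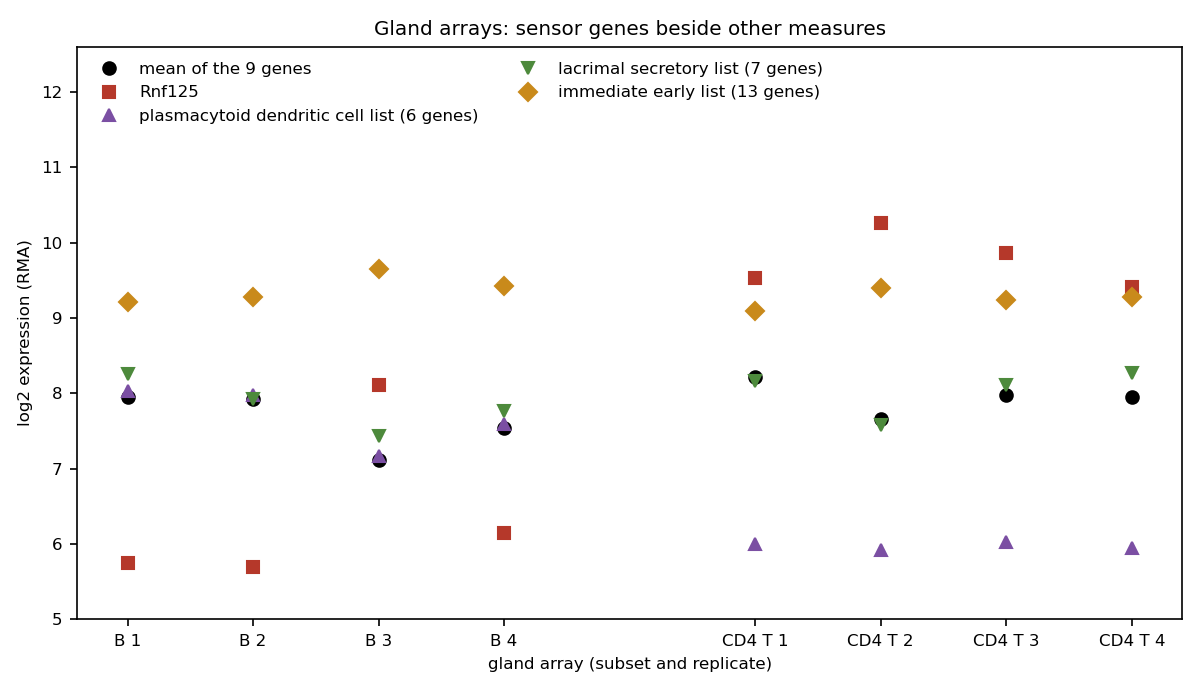
Log2 expression (vertical axis) in the 8 gland lymphocyte arrays of the mean over the 9 genes, of Rnf125 and of the means of 3 marker lists; levels are to be read within a symbol across arrays, not between symbols. The mean of the 9 genes is lowest in B cell replicate 3 (7.12) and CD4 T cell replicate 2 (7.66), where Rnf125 is highest (8.10 and 10.26).

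Around the receptors, genes of the RNA sensing cofactor list rose in both subsets. In gland B cells 6 of its 19 measured genes rose and 0 fell, beside 2.58% and 1.6% of all genes. In CD4 T cells 4 rose and 0 fell, beside 5.35% and 1.62%. Oas3, a sensor of RNA duplexes, rose 6.78-fold in B cells (adjusted p = 0.000339) and 3.29-fold in CD4 T cells, Ifit1, which binds RNA lacking host cap marks, 5.98-fold and 4.39-fold, and Oasl2, an OAS-like protein, 5.38-fold and 6.72-fold. Oasl1 rose 3.82-fold in B cells. Ddx60, a helicase linked to RIG-I signalling, rose 2.16-fold in CD4 T cells, a call lost without gland replicate 1 (adjusted p = 0.0658, 0.89) or spleen replicate 1 (0.107, 0.93) and with arrays centred or quantile normalized (0.96 each, under the fold minimum). Ddx60 was also called higher in gland B cells, a call lost without spleen replicate 1 (adjusted p = 0.0652) or 3 (0.0527). The list median was 0.14 in B and 0.11 in CD4 T cells, and 13 and 15 of its genes were not called.

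On the DNA sensing side, 0 of the 16 measured genes of the DNA sensor and STING list were called by limma in either subset, beside the 2.58% and 5.35% of all genes called higher, with medians of -0.01 in B and 0.00 in CD4 T cells. At an unadjusted p under 0.05 there were 10 genes in B and 5 in CD4 T cells, but the share of all genes at that p was not counted. By the adjusted p alone 3 were higher and 3 lower in gland B cells, beside 7.79% and 9.87% of all genes. In gland CD4 T cells 0 were higher and 2 lower, beside 12.7% and 10.7%. Cgas, the sensor that makes the second messenger for STING, stood at 6.77 to 7.17 in gland and 6.09 to 6.32 in spleen B cells, without overlap (0.75, SE 0.12, adjusted p = 0.00039), and at 0.04 in CD4 T cells (SE 0.12, adjusted p = 0.874). Ifi204, a sensor of the same interferon-induced family as Ifi203, differed by 0.85 in B cells (SE 0.19, adjusted p = 0.00563) and -0.10 in CD4 T cells (adjusted p = 0.796). Sting1, the adaptor of DNA sensing, stood at 8.23 to 8.81 in gland and 8.94 to 9.25 in spleen B cells, and at 8.84 to 9.26 in gland and 9.27 to 9.35 in spleen CD4 T cells (-0.49, adjusted p = 0.0408, and -0.21, adjusted p = 0.39). Of the 17 measured genes of signalling below MAVS and STING only Irf7, an interferon-induced transcription factor that drives interferon genes, was called in each subset, 4.25-fold higher in B cells (adjusted p = 1.23e-05) and 2.19-fold in CD4 T cells (adjusted p = 0.00159). With arrays centred, Irf7 was at 0.98 in CD4 T cells, just under the fold minimum. The kinase gene Tbk1 was at -0.31 and -0.34 (adjusted p = 0.0129 and 0.00467) and Irf3, the factor it activates, at -0.38 and -0.41 (adjusted p = 0.0285 and 0.0125), lower in every gland than in every spleen array of the subset but short of the fold minimum.

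Among 18 measured negative regulators 3 rose in each subset, Rnf125, Usp18 and Tnfaip3, and 1 fell in CD4 T cells, Usp15. Of all genes, 2.58% were called higher and 1.6% lower in B cells, and 5.35% and 1.62% in CD4 T cells. Usp18, which strips ISG15 and damps the interferon receptor, rose 6.55-fold in B cells (log2 2.71, and 3.32 without gland replicate 3) and 3.17-fold in CD4 T cells. Tnfaip3, a ubiquitin-editing brake on inflammatory signals, rose 4.36-fold and 10.3-fold, or by 1.35 and 2.70 on the log2 scale with the mean of its probe sets. Rnf125 was 3.37-fold higher in B cells (log2 1.75, adjusted p = 0.0104), with a value of 1.19 at the lowest on leaving out single arrays, and 2.40-fold higher in CD4 T cells (adjusted p = 0.0464). In CD4 T cells the Rnf125 call was lost on leaving out any of the 7 arrays (adjusted p = 0.0512 to 0.123) and with arrays centred (0.0615) or quantile normalized (0.0535), and that of Usp18 on leaving out 6 of them, every array except gland replicate 2 (0.0501 to 0.103). Usp15, a deubiquitinase, fell by 1.73 (adjusted p = 6.92e-09) but by 0.61 with the mean of its probe sets, which ended the call.

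In the nucleic acid clearance list (14 measured genes) Dnase1, a secreted nuclease, had the largest difference, 48.8-fold in B cells and 51.1-fold in CD4 T cells. It stood at 12.23 to 12.33 in epithelium and at 10.87, 10.81, 8.20 and 9.52 in gland B cells, 8.58 to 10.83 in gland CD4 T cells and 3.85 to 4.69 in the spleen arrays, all below the median of all values. Its order over the arrays was that of the mean of the 9 genes in gland B cells (replicates 1, 2, 4, 3, from high to low) and in gland CD4 T cells (1, 3, 4, 2). The mean of the 8 epithelial genes had another order, lowest in gland B replicate 2 and highest in gland CD4 T replicate 2. The mean of the 7 lacrimal secretory genes had the order of Dnase1 in gland B cells (8.26, 7.92, 7.44 and 7.76). In gland CD4 T cells that mean was also lowest in replicate 2 (7.57) but highest in replicate 4 (8.27). The part of gland material in these levels was not tested. Dnase1l3, a nuclease that clears DNA in microparticles, fell by 2.36 in B cells (adjusted p = 1.77e-06), or by 1.25 with the mean of its probe sets. The ZBP1 death pathway (6 measured genes) had 0 called genes in B and 1 in CD4 T cells, beside 2.58% and 5.35% of all genes called higher. Ripk3, the kinase that ZBP1 engages, ranged from 7.32 to 7.74 in gland and 7.55 to 7.76 in spleen B cells. Mlkl, the executioner of necroptosis, was 2.05-fold higher in CD4 T cells (adjusted p = 0.00567), a call lost without gland replicate 1 or 3 or spleen replicate 3 (0.97, 0.99 and 0.84) and with either rescaling (0.88 and 0.89). Among 15 genes of the eIF2 kinases and the stress response, Ppp1r15a, which reverses eIF2 phosphorylation and is also an immediate early gene, rose 17.4-fold and 15.8-fold, and Asns, an amino acid synthesis gene, rose 3.63-fold in CD4 T cells. Of 8 measured genes of the type I interferon axis, Irf1 rose 2.20-fold in B cells, and Irf8 4.06-fold and Stat2 2.11-fold in CD4 T cells. Stat2 was under the fold minimum with its probe sets averaged (0.91) or the arrays rescaled (0.92 and 0.99). Ifnb1, the interferon beta gene, stood at 3.14 to 3.73 in all 17 arrays, below the median of all values.

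In epithelium, more genes were called lower than higher in 6 of the 8 lists, beside 10.3% of all genes called lower and 15.2% higher. With arrays centred, 43.2% rather than 59.6% of all called genes were higher, and the lists were not recounted under that scaling. Of the DNA sensor and STING list 5 of 16 genes were called lower and 0 higher, with Ifi203 6.24-fold and Sting1 3.47-fold lower. Of the signalling list 5 of 17 were lower, with Traf5 6.46-fold and Irf5 3.61-fold lower. Ripk3 stood at 5.66, 5.12 and 5.22 in epithelium, 5.06-fold below the gland lymphocytes, beside the low Zbp1 there. Exceptions in the cofactor list were Prkra, an activator of PKR, at 3.13-fold and Oasl2 at 2.35-fold higher, beside 5 genes of that list that were lower, and the Oasl2 call was lost without epithelial replicate 2 (adjusted p = 0.0553) and with arrays centred (0.92).

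For the 5 genes called between gland and spleen, the genes whose levels followed theirs most closely over the 17 arrays were found by Pearson's r among genes with a group mean above the median of all values. For Ifih1 they were Lgals3bp (r = 0.98), Parp12 (0.97) and Ifit1 (0.97), and for Zbp1 Ifi47 (0.98), Nlrc5 (0.98) and Rbl1 (0.95). For Dhx58 they were H2-T23 (0.93), Mx1 (0.91) and Melk (0.90), and for Eif2ak2 Cmpk2 (0.93), Oasl2 (0.92) and the unnamed gene model 9530002B09Rik (0.91). After group means were taken off, these values were 0.62 to 0.92. For Trex1 the nearest were Tbc1d14 (0.94), E130308A19Rik (0.93) and Tank (0.93), and with group means off these fell to 0.02, 0.04 and 0.24, so that likeness lay between the groups and not between arrays of a group. The correlations are over arrays that fall into 5 groups and describe the pattern only.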

How the data were processed

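Per the labels, sorted cells were lysed, and RNA was amplified and labelled with biotin for the array. Per the submitters' processing notes, Partek and RMA were used, and the deposited values are on the log2 scale (45141 probe sets, 17 arrays, 0.49 to 12.95, median 4.71); versions and filters are not given in the sources used here. Probe sets were named from the platform annotation, with symbols updated by gene identifier (assembly GRCm38.p6, for names). Of 28898 probe sets with exactly 1 gene, the one with the highest mean over the arrays was kept per gene (17097 genes, no filter on dim genes). Group means were estimated by limma 3.58.1 (R 4.3.3; lmFit, eBayes; 12 residual and 3.17 prior degrees of freedom), with p-values Benjamini-Hochberg adjusted over all genes of a comparison; a gene was called at an adjusted p under 0.05 and at least 2-fold. Errors are SDs between arrays for levels and model standard errors for changes, and the number of arrays limits the precision; correlations within groups ran from 0.977 to 0.996. The pipeline was tested on simulated data. The members and lists were chosen with earlier results of these data known. Named genes were the 9 members, at most 4 called genes per list and comparison, taken by size of change, Rnf125, Irf3 and Tbk1, and the 3 nearest genes of members called between gland and spleen; Cgas, Ifi204, Sting1, Ripk3, Ifnb1 and Dnase1 in single arrays were chosen after their values were seen. Averaging probe sets, rescaling, other eBayes settings, replicate numbers as a block and leaving out arrays were tried. Figures were drawn with matplotlib 3.10.9.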

Additional observations from a re-analysis of the deposited data

Results flagged for a closer look

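For Zbp1 the gland minus spleen change was 1.71 higher in B cells than in CD4 T cells on the log2 scale (adjusted p = 0.0314; 0.94 and adjusted p = 0.1 by its second probe set). That call was lost on leaving out any of 8 single arrays (adjusted p = 0.0528 to 0.078). For Trex1 the same difference was -1.20 (adjusted p = 0.000227), a larger change in CD4 T cells. In Zbp1 the low value was that of spleen B cells (7.64 ± 0.10, SD, n = 3) and in Trex1 that of spleen CD4 T cells (6.85 ± 0.09, n = 3). Among the 9 genes in the gland B and gland CD4 T cells (18 sets of 4 arrays), 0 had an array set apart by Dixon's criterion, although about 1 in 20 would be by chance.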

How the results depend on the processing

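Over the alternatives run, the number of the 9 genes called stayed within 1.5 times of 3 in B cells, 4 in CD4 T cells, 2 for the difference of the changes, 5 in epithelium, and 1 and 2 for B against CD4 T cells in gland and spleen, apart from these cases. Without the fold minimum 8 genes were called in B cells and 4 in spleen B against CD4 T cells. Leaving out single arrays gave 2 to 4 in B cells, 4 to 4 in CD4 T cells, 1 to 2 for the difference, 5 to 6 in epithelium, and 1 to 1 and 2 to 2 for B against CD4 T cells in gland and spleen; the call lost in the difference was Zbp1. With the replicate block the counts were 3, 4, 2, 5, 1 and 2, so it changed no count. Whether replicate numbers pair the samples is not given. Deviations of same-numbered arrays correlated at a median of -0.02, and 2 of 31 pairs exceeded 0.1. For arrays of other numbers the median was 0.005, and 10 of 84 pairs exceeded 0.1. These values cannot show whether same-numbered arrays came from the same animals.

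The 15 sign changes of single genes all concerned changes that were not called. With arrays centred, Samhd1 went to 0.063 in the difference of the changes and 0.093 between gland B and CD4 T cells, and Mavs to -0.063 in epithelium (-0.046 after quantile normalization); with probe sets averaged, Samhd1 went to 0.016 between the gland subsets. Leaving out single arrays moved Mavs from -0.10 to 0.014 in CD4 T cells, and in the difference of the changes Ifih1 from -0.0018 to 0.65, Dhx58 from -0.50 to 0.15 and Samhd1 from -0.12 to 0.0088. Between gland B and CD4 T cells it moved Dhx58 from -0.14 to 0.51 and Samhd1 from -0.069 to 0.056, and between the spleen subsets Samhd1 from -0.012 to 0.089. The cause was not tested. Centring shifted the median of all genes by -0.16 in CD4 T cells, 0.13 in the difference, 0.12 between gland subsets and -0.31 in epithelium, and moved the share of called genes that were higher from 76.7% to 64% in CD4 T cells and from 23.9% to 35.9% in the difference. Signal over background is unknown here, since the values carry no detection calls.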
